A study of Mus musculus with 9 samples.

Results

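The cytoplasmic ribosomal protein genes were followed in NIH 3T3 cells, a line of mouse fibroblasts, after knockdown of either of 2 ternary complex factors. Members were the genes whose symbol is Rpl or Rps with a number (an a, l or x may follow) or is Rplp0, Rplp1, Rplp2 or Rpsa, with pseudogenes and the Rps6k kinases left out. Each gene was read from probe sets that name it alone, and the probe set with the highest mean over all arrays stood for the gene. This gave 59 genes of 19935 tested, 37 of the large and 22 of the small ribosomal subunit. Another 16 ribosomal protein genes, among them Rpl3, Rpl11, Rps16 and Rps27, were found only on probe sets that name other symbols too and are not among the 59.

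The groups were cells that stably carried an shRNA against Net (gene Elk3), an shRNA against Sap-1 (gene Elk4) or the empty pLKO.1 vector, with 3 biological replicates and 1 Affymetrix Mouse Gene 1.0 ST array each. All cells attached to fibronectin for 2 h, spent a night without serum and were lysed 1 h after bovine serum was added. The series text gives 20% serum and the protocols of the single samples 10%. The labels do not say how many independently made lines each group holds, so p measures the spread between the replicates deposited. No group was left without serum, and nothing here measures the response to it.

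A ribosome is built from 2 subunits, each a folded ribosomal RNA with many small basic proteins, most of them needed in a single copy per subunit. Their mRNAs are among the most abundant of a growing cell, and nearly all begin with a C followed by a run of pyrimidines, the 5′ terminal oligopyrimidine (TOP) motif, through which mTOR signalling sets how fast they are translated. Serum is known to act on ribosomal protein synthesis in fibroblasts largely at that step of translation, which arrays of total RNA do not measure. Net and Sap-1 are ETS-domain proteins that bind beside serum response factor, and binding sites of other ETS proteins such as GABP are common in ribosomal protein promoters.

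The shRNAs were checked on their targets first. Elk3 averaged 11.08 ± 0.02 in Net shRNA cells and 11.51 ± 0.02 in control cells on the log2 scale (SD, n = 3 each), a change of -0.42 (SE 0.04, limma adjusted p = 1.1e-05). Elk4 averaged 9.53 ± 0.02 in Sap-1 shRNA cells and 11.07 ± 0.05 in control cells, a change of -1.54 (SE 0.04, limma adjusted p = 9.2e-10). Elk4 was lower in Net shRNA cells as well, by -0.44 (SE 0.04, limma adjusted p = 2.3e-05). In Sap-1 shRNA cells Elk3 was lower too, by -0.12 (SE 0.04, adjusted p = 0.023 in limma), and so was Srf, the gene of serum response factor, by -0.19 (SE 0.05, adjusted p = 0.0085 in limma). Each line thus had less mRNA of both factors than control cells. Array medians ran from 7.47 to 7.54, and arrays of 1 group correlated at 0.9982 to 0.9992. The 10 fibroblast markers had means of 11.69 to 13.96, while 8 macrophage markers ran from 5.55 to 8.38, 7 epithelial markers from 6.36 to 8.23 and 7 endothelial markers from 6.11 to 7.63, levels with no detection call. Of the fibroblast markers 1 rose and 3 fell in Net shRNA cells, and 1 rose and 4 fell in Sap-1 shRNA cells, where Fstl1 (-0.35) and the collagen gene Col3a1 (-0.34) fell most. Of the macrophage markers Cd68 rose by 0.23 in Net shRNA cells and fell by 0.23 in Sap-1 shRNA cells. The epithelial keratin gene Krt14 rose by 0.58 in Net shRNA cells and by 0.48 in Sap-1 shRNA cells, and Cdh1 rose by 0.38 in Net shRNA cells. Of the endothelial markers 2 rose in Net shRNA cells, Tek by 1.84 and Emcn by 0.27, while Emcn rose by 0.89, Cdh5 rose by 0.84 and Tek fell by 0.30 in Sap-1 shRNA cells. Over all genes 13.4% were called higher and 10.2% lower in Net shRNA cells, and 15.8% and 13.9% in Sap-1 shRNA cells. The part of these marker differences in what follows was not tested.

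In Net shRNA cells the ribosomal protein genes hardly moved as a group. The limma fit called 5 higher than in control cells (Rps27l, Rpl13, Rps14, Rpl9 and Rpl38) and 4 lower (Rpl22, Rpl14, Rpl6 and Rps7) at an adjusted p under 0.05. Of all genes tested 13.4% were called higher and 10.2% lower, 23.6% together, against 15.3% of the ribosomal protein genes. The median change of the 59 genes was -0.02 on the log2 scale, beside a median of -0.0023 over all genes. A change of more than 1.2-fold was seen for 2 members, Rps27l and Rpl22, or 3.39%, beside 13.1% of all genes. The 95% interval of the change lay wholly inside 1.2-fold in either direction for 52 of the 59 genes (88.1%), and for 68.8% of all genes. Net shRNA arrays did not overlap control arrays for 30 members (50.8%) and for 34.3% of all genes. The median change was -0.0165 for the 37 large subunit genes and -0.0195 for the 22 small subunit genes.

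Sap-1 shRNA cells showed the same narrow spread. Called higher than control were 3 members (Rps27l, Rpl22 and Rpl8), and called lower were 5 (Rpl12, Rpl36, Rps4x, Rplp0 and Rpl6), 13.6% together, with 15.8% of all genes called higher, 13.9% called lower and 29.7% in either direction. The median change was -0.03 for the 59 genes and -0.02 for all genes tested. Only Rps27l passed 1.2-fold, 1.69% of the members, beside 17.8% of all genes. The interval stayed inside 1.2-fold for 54 members (91.5%) and for 62.9% of all genes. Sap-1 shRNA arrays did not overlap control arrays for 24 members (40.7%) and for 41% of all genes. Both comparisons use the same 3 control arrays, so calls common to them are not independent.

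**Figure D1:**
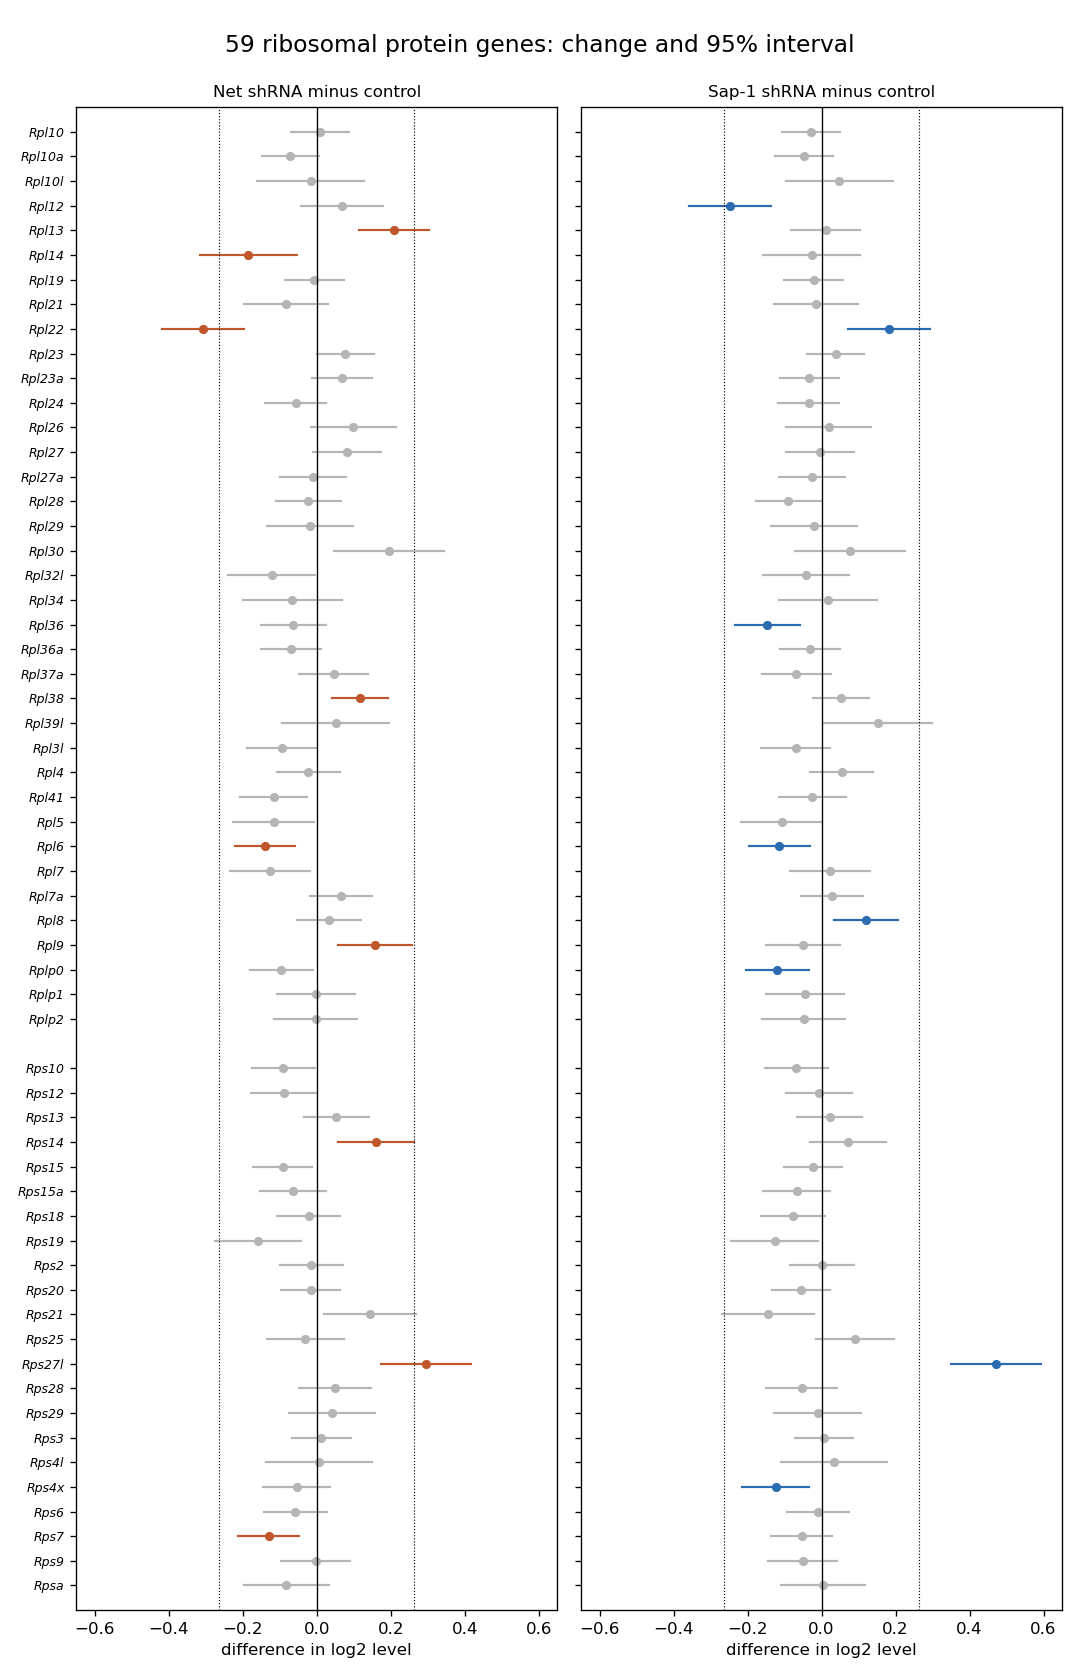
Change of each of the 59 ribosomal protein genes in Net shRNA cells (left) and Sap-1 shRNA cells (right) against control cells, as the difference in log2 level with its 95% interval from limma, with large subunit genes above small subunit genes. Coloured genes passed an adjusted p under 0.05 and grey ones did not, dotted lines mark 1.2-fold, and the point estimates of Rps27l and Rpl22 (left) and Rps27l (right) lie outside them.

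The narrow spread went with precise measurements. The median SD within groups was 0.0378 for the ribosomal protein genes, 0.0532 for the 4427 genes with a mean of at least 10 and 0.0663 for all genes. Among those 4427 genes 44% were called in Net shRNA cells and 52.1% in Sap-1 shRNA cells, while of the 51 ribosomal protein genes with such a mean 15.7% and 13.7% were called. Arrays did not overlap control for 54.9% of those 51 in Net shRNA cells and 45.1% in Sap-1 shRNA cells, below the 61.4% and 69.7% of the 4427 genes. Of the 59 members 9 lay within 1 log2 unit of the highest value in the table, where signals can be compressed, and the part of compression was not tested. The normalization also removes a shift that most genes share, and an array cannot tell fewer transcripts per cell from fewer cells.

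Rps27l, a close paralog of Rps27 that is known as a target of p53, rose in both knockdowns. Its levels were 10.87, 10.87 and 11.00 on the 3 Net shRNA arrays, 11.06, 11.14 and 11.06 on the Sap-1 shRNA arrays, and 10.66, 10.68 and 10.52 on the control arrays. No array of either knockdown overlapped the control arrays. The rise was 0.30 in Net shRNA cells (SE 0.05, limma adjusted p = 0.0023), or 22.7%, and 0.47 in Sap-1 shRNA cells (SE 0.05, adjusted p = 5.9e-05 in limma), or 38.6%. It passed the test against control in each of 20 other settings in both knockdowns, and it is read from 1 probe set. Of the list of genes that link free ribosomal proteins to p53, 6 were measured. Of these 2 rose and 2 fell in Net shRNA cells, and 1 rose and 1 fell in Sap-1 shRNA cells. That is 33.3% and 16.7% in each direction, beside 13.4% higher and 10.2% lower of all genes in Net shRNA cells and 15.8% and 13.9% in Sap-1 shRNA cells, in a list too short to read a share from. Mdm2, which encodes the ubiquitin ligase of p53, rose by 0.37 in Net shRNA cells (SE 0.04, limma adjusted p = 0.00011) and by 0.50 in Sap-1 shRNA cells (SE 0.04, adjusted p = 6.8e-06 in limma). Mdm4, whose protein also restrains p53, fell by 0.28 in Net shRNA cells (limma adjusted p = 0.0039) and by 0.49 in Sap-1 shRNA cells (limma adjusted p = 5.8e-05). In Net shRNA cells Nat10, an acetyltransferase of ribosomal RNA, rose by 0.17 (SE 0.04, limma adjusted p = 0.015), and Herc2, a ubiquitin ligase, fell by 0.38 (SE 0.09, limma adjusted p = 0.011).

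Rpl22, a large subunit protein that is dispensable for ribosome assembly in most mouse cells, moved in opposite directions. It stood at 10.05, 9.93 and 9.92 in Net shRNA cells, at 10.49, 10.47 and 10.42 in Sap-1 shRNA cells and at 10.21, 10.27 and 10.35 in control cells. The groups did not overlap, with Net shRNA arrays below and Sap-1 shRNA arrays above control. The change was -0.31 in Net shRNA cells (SE 0.05, limma adjusted p = 0.001) and 0.18 in Sap-1 shRNA cells (SE 0.05, adjusted p = 0.017 in limma). Its neighbours on the chromosome moved in the same directions: the median shift of the 50 nearest expressed genes was -0.23 in Net shRNA cells and 0.13 in Sap-1 shRNA cells. With that shift taken off, a setting chosen after seeing the data, the change was -0.08 in Net shRNA cells (SE 0.05, limma adjusted p = 0.33) and 0.05 in Sap-1 shRNA cells (SE 0.05, adjusted p = 0.48 in limma). The rise in Sap-1 shRNA cells was also lost without control replicate 1 or 2 and without Sap-1 shRNA replicate 1 or 2, with an adjusted p of up to 0.071 in limma.

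Rpl12, a protein at the base of the stalk that recruits elongation factors, was lower in Sap-1 shRNA cells. Levels were 9.21, 9.18 and 9.09 on Sap-1 shRNA arrays and 9.43, 9.33 and 9.47 on control arrays, with no overlap, and 9.51, 9.44 and 9.48 on Net shRNA arrays. The change was -0.25 in Sap-1 shRNA cells (SE 0.05, adjusted p = 0.0029 in limma) and 0.07 in Net shRNA cells (limma adjusted p = 0.42). With the neighbours' shift of -0.10 taken off, the change in Sap-1 shRNA cells was -0.14 (SE 0.06, limma adjusted p = 0.073). Rpl12 is read from 1 probe set. A probe set that it shares with Snora65 also fell there, by 0.25 (limma adjusted p = 0.0095). Probe sets shared with Gm32899 did not pass there, such as those at -0.02 (limma adjusted p = 0.74) and -0.04 (limma adjusted p = 0.49).

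Rpl13, a large subunit protein, rose in Net shRNA cells. Its levels were 11.92, 11.94 and 11.88 on Net shRNA arrays, 11.72, 11.76 and 11.68 on Sap-1 shRNA arrays and 11.65, 11.72 and 11.76 on control arrays. Every Net shRNA array exceeded every other one. The rise was 0.21 (SE 0.04, limma adjusted p = 0.0041) in Net shRNA cells, and the change in Sap-1 shRNA cells was 0.01 (limma adjusted p = 0.89). All 9 probe sets that name only Rpl13 were called higher in Net shRNA cells, with changes of 0.16 to 0.21. Its neighbours had a median shift of 0.17 there, and 0.04 was left without it (SE 0.04, limma adjusted p = 0.49).

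**Figure D2:**
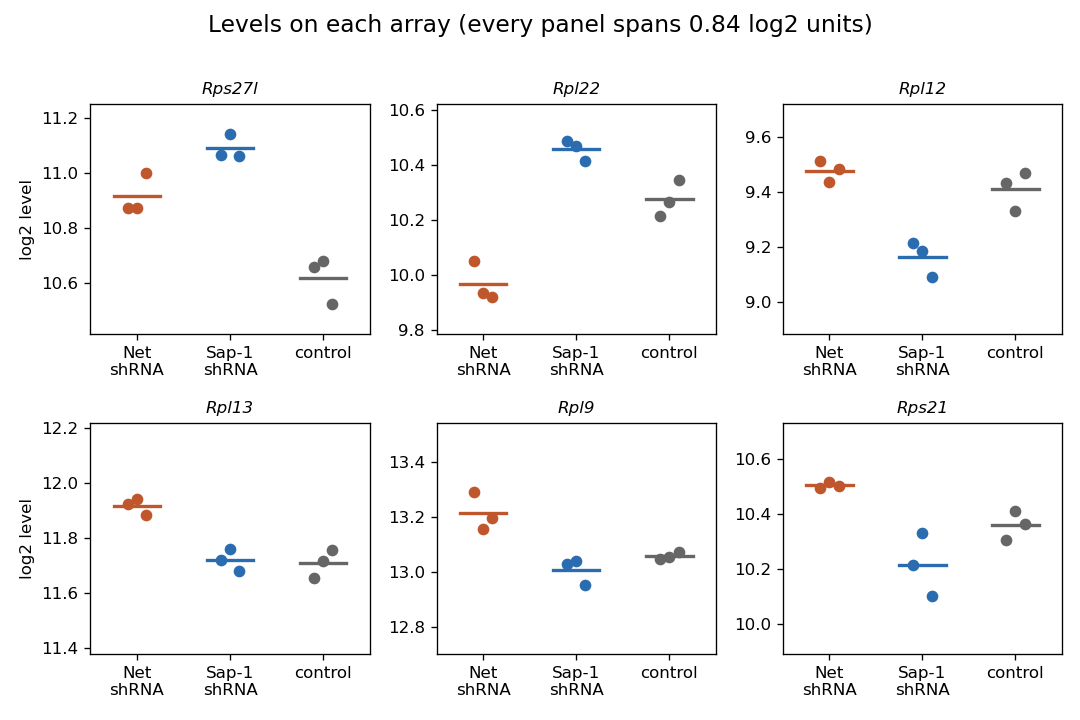
Log2 level on each of 9 arrays (points) and group mean (line) of 6 ribosomal protein genes in Net shRNA, Sap-1 shRNA and control cells, each panel with the same span of the axis. Rps27l was above control on every knockdown array, and Rpl22 was below control on every Net shRNA array and above it on every Sap-1 shRNA array.

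Of the other genes called in Net shRNA cells, Rpl9, Rpl14, Rps7 and Rps14 kept their call with the neighbours' shift taken off. Rpl9, a large subunit protein, had levels of 13.29, 13.16 and 13.20 in Net shRNA cells and 13.04, 13.05 and 13.07 in control cells. It rose by 0.16 (SE 0.05, limma adjusted p = 0.026) while its neighbours shifted by -0.21, and 6 of its 8 probe sets were called higher. Rpl14, a large subunit protein, stood at 9.84, 9.85 and 9.84 in Net shRNA cells and at 9.98, 10.17 and 9.94 in control cells. Its change was -0.19 (SE 0.06, limma adjusted p = 0.043). Rps7, a small subunit protein that can bind Mdm2, had levels of 12.91, 12.99 and 12.97 in Net shRNA cells and 13.11, 13.08 and 13.07 in control cells, a change of -0.13 (SE 0.04, limma adjusted p = 0.027). Of the 3 probe sets of Rps7 1 was called lower. Groups did not overlap for Rpl9, Rpl14 or Rps7. Of the 9 members called in Net shRNA cells, 6 lost the call when 1 array was left out. Rpl14 lost it without any one Net shRNA array, without control replicate 1 or 2 and without Sap-1 shRNA replicate 1 or 3 (limma adjusted p of up to 0.14). Rpl9 lost it without any one control array and without Net shRNA replicate 1 or 3 (up to 0.082), and Rps7 without Net shRNA replicate 1 or 3 and control replicate 1 or 2 (up to 0.081). The others were Rps14, Rpl38 and Rpl6.

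Rps14, of the small subunit platform, had levels of 12.32, 12.34 and 12.31 in Net shRNA cells and 12.16, 12.15 and 12.19 in control cells. It rose by 0.16 (SE 0.05, limma adjusted p = 0.029), and leaving out any one array of these groups raised the adjusted p to as much as 0.09. With the neighbours' shift taken off the rise was 0.21 (SE 0.06, limma adjusted p = 0.02), and 1 of the 2 probe sets of Rps14 was called higher. Rpl38, a small protein of the large subunit known in mice for its part in translating Hox mRNAs, had levels of 12.98, 12.99 and 13.00 in Net shRNA cells and 12.86, 12.88 and 12.88 in control cells. Its rise of 0.12 (SE 0.03, limma adjusted p = 0.03) was matched by a shift of 0.11 among its neighbours, with 0.0045 left (limma adjusted p = 0.95). The call was also lost without Net shRNA replicate 2 or 3 and without any one control array (limma adjusted p of up to 0.087). Centring each array on its median or taking the mean of all probe sets lost it too, and 1 of the 4 probe sets of Rpl38 was called higher. All these differences were small, under 1.2-fold.

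Rpl6, a large subunit protein, was the one member called lower in both knockdowns. It had levels of 13.08, 13.14 and 13.14 in Net shRNA cells, 13.14, 13.15 and 13.15 in Sap-1 shRNA cells and 13.24, 13.27 and 13.26 in control cells. Control arrays were above all others. The change was -0.14 in Net shRNA cells (SE 0.04, limma adjusted p = 0.017) and -0.11 in Sap-1 shRNA cells (SE 0.04, adjusted p = 0.038 in limma), and all 3 of its probe sets were called lower in both. The call in Net shRNA cells was lost without Net shRNA replicate 1 or control replicate 2 (limma adjusted p of up to 0.057), and that of Sap-1 shRNA cells without any one array of these groups (up to 0.1). Its neighbours shifted by -0.19 in Net shRNA cells and by -0.14 in Sap-1 shRNA cells. Taking that off turned the direction, to 0.05 in Net shRNA cells (SE 0.04, limma adjusted p = 0.45) and 0.03 in Sap-1 shRNA cells (SE 0.04, adjusted p = 0.61 in limma).

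The stalk proteins Rplp0, Rplp1 and Rplp2 form the arm of the large subunit that contacts translation factors. Rplp0, which anchors the arm, had levels of 13.85, 13.81 and 13.79 in Sap-1 shRNA cells and 13.96, 13.91 and 13.94 in control cells. It fell by 0.12 there (SE 0.04, limma adjusted p = 0.037), its neighbours shifted by -0.12, and 0.0015 was left without that shift (limma adjusted p = 0.98). Of its 2 probe sets 1 was called lower there. In Net shRNA cells Rplp0 had levels of 13.83, 13.88 and 13.82 and a change of -0.10 that did not pass (limma adjusted p = 0.11), though it did in 2 of 20 other settings. Rplp1 had a change of -0.0031 in Net shRNA cells (limma adjusted p = 0.98) and of -0.05 after the Sap-1 shRNA (limma adjusted p = 0.54). Rplp2 differed by -0.0033 after the Net shRNA and by -0.05 after the Sap-1 shRNA, and did not pass either.

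Rpl36, Rps4x and Rpl8 complete the calls of Sap-1 shRNA cells. Rpl36, a small large-subunit protein, had levels of 12.96, 12.99 and 12.89 in Sap-1 shRNA cells and 13.07, 13.10 and 13.10 in control cells. It fell by 0.15 (SE 0.04, limma adjusted p = 0.016), 7 of its 9 probe sets were called lower, and with the neighbours' shift taken off it still passed at -0.15 (limma adjusted p = 0.012). Rps4x, the X-linked form of a small subunit protein, had levels of 12.85, 12.82 and 12.91 in Sap-1 shRNA cells and 12.98, 12.99 and 12.98 in control cells. It fell by 0.12 (SE 0.04, limma adjusted p = 0.042), with 3 of 5 probe sets called lower, and by 0.07 with the shift taken off (limma adjusted p = 0.18). This call was also lost with each array centred on its median (limma adjusted p = 0.18). Rpl8, which lies near the catalytic centre of the large subunit, had levels of 12.92, 12.93 and 13.00 in Sap-1 shRNA cells and 12.83, 12.83 and 12.82 in control cells. It rose by 0.12 (SE 0.04, limma adjusted p = 0.037), and 0.02 was left with the shift taken off (limma adjusted p = 0.72). Of the 8 members called in Sap-1 shRNA cells, 6 lost the call when 1 array was left out, Rpl22 and Rpl6 as given above. Control replicates 1, 2 and 3 each decided Rplp0, Rps4x and Rpl8, and control replicate 2 decided Rpl36. Sap-1 shRNA replicates 2 and 3 each decided Rplp0 and Rpl8, replicates 1 and 2 decided Rps4x and replicate 3 decided Rpl36, and without Net shRNA replicate 3, which enters the shared spread, Rps4x and Rpl8 were lost. The limma adjusted p then reached at most 0.15, for Rps4x.

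Rpl5, Rps6 and Rpsa, members known for roles beyond the ribosome or for signalling to it, did not pass in either knockdown in the limma fit. Rpl5, which with Rpl11 and a small ribosomal RNA can bind Mdm2, had levels of 12.73, 12.83 and 12.92 in Net shRNA cells, 12.82, 12.83 and 12.86 in Sap-1 shRNA cells and 12.96, 12.96 and 12.92 in control cells. Its changes were -0.12 in Net shRNA cells (limma adjusted p = 0.13) and -0.11 in Sap-1 shRNA cells (limma adjusted p = 0.14). The change in Net shRNA cells passed in 3 of 20 other settings (limma adjusted p down to 0.035), among them without Net shRNA replicate 3, and turned to 0.06 with the neighbours' shift taken off (limma adjusted p = 0.48). Rps6, the small subunit protein phosphorylated after serum by S6 kinases, had levels of 13.71, 13.72 and 13.76 in Net shRNA cells, 13.76, 13.76 and 13.81 in Sap-1 shRNA cells and 13.80, 13.80 and 13.76 in control cells. The groups overlapped in both comparisons, and its differences were -0.06 after the Net shRNA and -0.0094 after the Sap-1 shRNA. Its neighbours shifted by 0.15 in Sap-1 shRNA cells, and with that taken off Rps6 passed there at -0.16 (SE 0.04, limma adjusted p = 0.011). Rpsa, also known as a laminin receptor, had a difference of -0.08 after the Net shRNA and of 0.0049 after the Sap-1 shRNA.

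Rps19, the gene most often mutated in Diamond-Blackfan anaemia in humans, had levels of 12.0450, 12.1388 and 12.0001 in Net shRNA cells, 12.0932, 12.1708 and 12.0161 in Sap-1 shRNA cells and 12.2618, 12.1678 and 12.2315 in control cells. Net shRNA arrays lay below the control arrays. The change of -0.16 in Net shRNA cells just missed the threshold (SE 0.05, limma adjusted p = 0.052), and it passed in 10 of 20 other settings, among them without Net shRNA replicate 2 and without Sap-1 shRNA replicate 2 or 3. On the 3 probe sets that name both Rps19 and the pseudogene Rps19-ps3 the change was -0.22 to -0.25, and these passed. Of them 2 hold the same values, so they are not independent readings.

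Paralogs known for expression in particular tissues did not pass the limma test in either knockdown. Rpl3l, a form found in muscle, had levels of 6.26 to 6.35 in Net shRNA cells, 6.31 to 6.35 in Sap-1 shRNA cells and 6.35 to 6.44 in control cells, and with the neighbours' shift taken off it passed in Net shRNA cells at -0.12 (limma adjusted p = 0.049). Rpl10l, a form known from the testis, had levels of 7.31 to 7.52 in Net shRNA cells, 7.40 to 7.56 in Sap-1 shRNA cells and 7.37 to 7.51 in control cells. Rpl10, its X-linked parent, differed by 0.0079 after the Net shRNA and by -0.03 after the Sap-1 shRNA. Rpl39l, another paralog known from the testis, had levels of 10.17, 10.36 and 10.47 in Net shRNA cells, 10.46, 10.38 and 10.45 in Sap-1 shRNA cells and 10.28, 10.26 and 10.29 in control cells. All Sap-1 shRNA arrays were above control, by 0.15 on average, without passing the test (limma adjusted p = 0.11), though it passed in 3 of 20 other settings, among them without Net shRNA replicate 1.

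The Net and Sap-1 shRNA cells were also compared directly, which asks which members differ between the 2 knockdowns. Called higher in Net shRNA cells were 4 genes, Rpl12, Rps21, Rpl9 and Rpl13, and called lower were 3, Rpl22, Rps27l and Rpl7, 11.9% together, with 14.2% of all genes called higher, 13.3% lower and 27.5% in either direction. Arrays of the knockdowns did not overlap for 27 members (45.8%) and for 37.4% of all genes. Rpl22 differed most, at -0.49 (SE 0.05, limma adjusted p = 2.3e-05). Rpl12 differed by 0.31 (SE 0.05, limma adjusted p = 0.00061). Rps21, a small subunit protein, had levels of 10.49, 10.52 and 10.50 in Net shRNA cells and 10.21, 10.33 and 10.10 in Sap-1 shRNA cells, around a control range of 10.31 to 10.41. It differed by 0.29 (SE 0.06, limma adjusted p = 0.0024) and passed against control in neither line, at 0.14 in Net shRNA cells (limma adjusted p = 0.095) and -0.14 in Sap-1 shRNA cells (limma adjusted p = 0.078), though it passed in 5 of 20 other settings in each, among them without Sap-1 shRNA replicate 3 in Net shRNA cells and without replicate 2 in Sap-1 shRNA cells. A second, dimmer probe set of Rps21 read otherwise. It rose against control by 0.25 in Net shRNA cells (SE 0.07, limma adjusted p = 0.022) and differed by 0.06 in Sap-1 shRNA cells (limma adjusted p = 0.62). Between the knockdowns it differed by 0.20 and did not pass (limma adjusted p = 0.059). Rpl9 differed by 0.21 (limma adjusted p = 0.0048), with all 8 probe sets called. Rpl12, Rps21 and Rpl9 kept their calls with the neighbours' shift taken off. Rpl22 lost its call, with -0.13 left (SE 0.05, limma adjusted p = 0.09) after a shift of -0.36. Rpl13 (0.11, limma adjusted p = 0.062) and Rps27l (-0.09, limma adjusted p = 0.31) lost theirs too.

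Rpl7, a large subunit protein with levels of 12.55, 12.55 and 12.66 in Net shRNA cells and 12.69, 12.71 and 12.81 in Sap-1 shRNA cells, differed by -0.15 (SE 0.05, limma adjusted p = 0.043). All 4 of its probe sets were called lower, but the difference turned to 0.10 with the neighbours' shift of -0.25 taken off (limma adjusted p = 0.11). It was lost without Net shRNA replicate 1 or 2, Sap-1 shRNA replicate 2 or 3 or any one control array (limma adjusted p of up to 0.15). The difference of -0.18 in Rps27l (SE 0.05, limma adjusted p = 0.034) held in 13 of 20 other settings. It was lost without Net shRNA replicate 1 or 2 and without any one Sap-1 shRNA replicate.

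**Figure D3:**
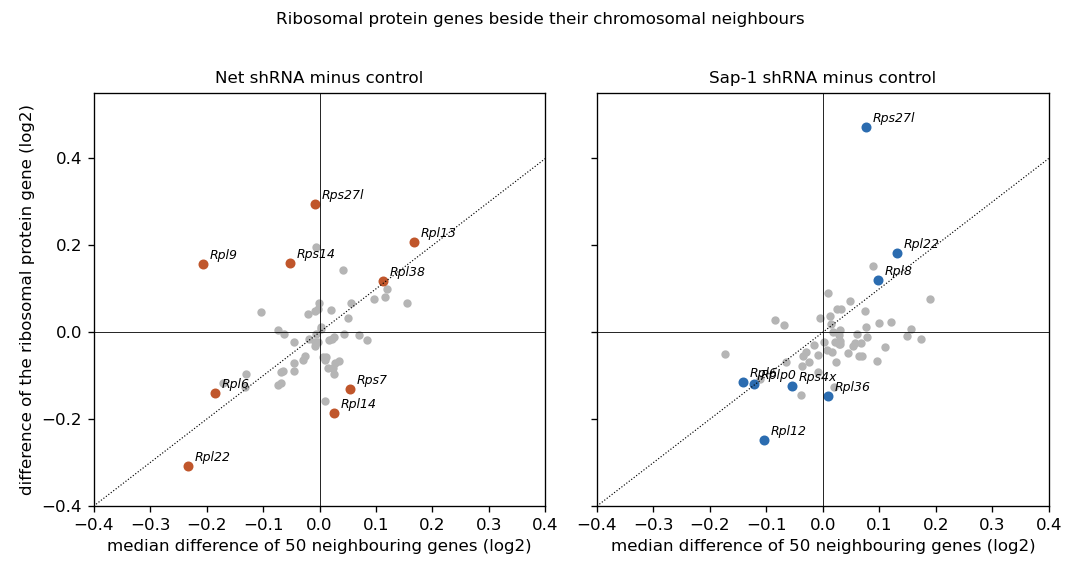
Change of each of the 59 ribosomal protein genes (vertical axis, log2) against the median change of its 50 nearest expressed neighbours on the chromosome (horizontal axis, log2), in Net shRNA and Sap-1 shRNA cells against control. Coloured and named genes passed an adjusted p under 0.05, and on the dotted line a gene moved as much as its neighbours, as Rpl38 and Rplp0 did, while Rps27l lay far above it.

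Neighbours of the members shifted by between -0.23 and 0.17 in Net shRNA cells and between -0.17 and 0.19 in Sap-1 shRNA cells. The shift exceeded 0.1 in size for 12 of the 59 members in each knockdown. With it taken off, the counts of members called were 4 higher and 4 lower in Net shRNA cells, 1 higher and 7 lower in Sap-1 shRNA cells. Of all genes placed 13.5% were then called higher and 12.9% lower in Net shRNA cells, and 16.4% and 18% in Sap-1 shRNA cells. The genes called were partly different ones. In Net shRNA cells 3 of the 4 higher and 2 of the 4 lower were calls of the first fit, and Rpl37a (higher), Rps19 and Rpl3l (lower) were added. In Sap-1 shRNA cells Rps27l (higher) and Rpl36 (lower) were calls of the first fit, and the other 6 called lower, Rpl21, Rpl24, Rps3, Rps6, Rps15a and Rps20, were not. Between the knockdowns 9 were called higher, 3 of them in the first fit as well, and 1 lower, Rpl34, beside 15.8% and 14.7% of all genes placed.

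Most members can be read more than once, since 39 genes have more than 1 probe set and the 59 genes have 214. Tested over all named probe sets, 19 of the 214 were called higher and 9 lower in Net shRNA cells, where 13.2% of named probe sets were called higher and 10.6% lower. In Sap-1 shRNA cells 4 were called higher and 15 lower, with 15.4% of named probe sets higher and 13.8% lower. Between the knockdowns 19 were higher in Net shRNA cells and 13 lower, with 14% and 13.2% of named probe sets. No gene had probe sets called in opposite directions in any comparison. Some genes had dimmer probe sets called though the probe set that stood for them was not. In Net shRNA cells these were Rps15 (2 of 3 lower), Rpl7 (1 of 4 lower) and Rps21 (1 of 2 higher), and in Sap-1 shRNA cells Rps25 (1 of 6 higher). Between the knockdowns 5 of 6 probe sets of Rps25 and 2 of 3 of Rps15 were called lower in Net shRNA cells. The probe sets of a gene may match the same transcripts or those of its processed pseudogenes, and 18 of them repeat the values of another, so they are not independent readings.

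**Figure D4:**
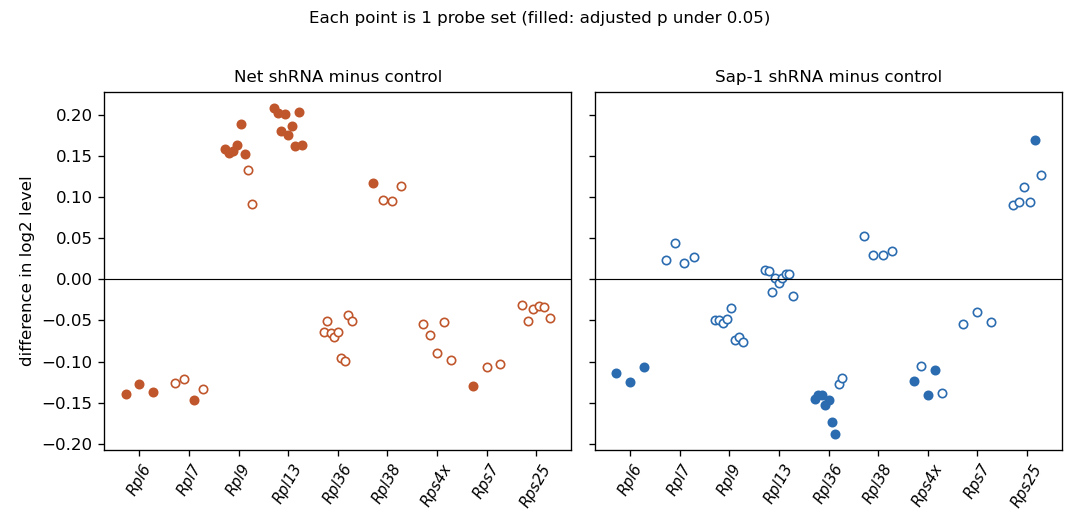
Change of every probe set (points) that names only the gene, for 9 ribosomal protein genes with more than 1 probe set, in Net shRNA cells (left) and Sap-1 shRNA cells (right) against control, in log2 units. Filled points passed an adjusted p under 0.05, and the 9 probe sets of Rpl13 lie between 0.16 and 0.21 in Net shRNA cells.

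Probe sets that name a ribosomal protein gene with other symbols, 233 in all, give a view of genes outside the 59. In Net shRNA cells 4 were called higher and 17 lower, where over all probe sets 10.8% were called higher and 8.83% lower. The 17 were probe sets of Rpl31 (7), Rps23 (6), Rps19 (3) and Rps15a (1), each shared with pseudogenes or other genes. Among those of Rps19 some repeat the values of another, so the counts are not of independent readings. In Sap-1 shRNA cells 5 were called higher and 4 lower, where over all probe sets 13.2% were called higher and 11.5% lower. Between the knockdowns 4 were higher in Net shRNA cells and 18 lower, beside 11.3% and 11.4% of all probe sets. The largest rises were on probe sets shared with small nucleolar RNAs hosted in introns. The probe set of Snord34 and Rpl13a rose by 0.74 in Net shRNA cells (SE 0.16, limma adjusted p = 0.0098) and by 0.81 in Sap-1 shRNA cells (SE 0.16, adjusted p = 0.0046 in limma). The probe set of Snord68 and Rpl13 rose by 0.83 in Net shRNA cells (SE 0.15, limma adjusted p = 0.0034), and its difference of 0.44 in Sap-1 shRNA cells did not pass (limma adjusted p = 0.059).

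Promoters are shown for the members that changed most and for genes that carry the motifs typical of this family. RefSeq windows (GRCm38.p6) of 300 bases, 250 before the listed start and 50 from it on, were matched by symbol for 47 of the 59 genes. Each line gives 60 bases before and 20 from the start on, 5′ to 3′ on the gene's strand. Capitals mark CCGGAAG, the core bound by many ETS proteins, on either strand, and a C followed by at least 4 pyrimidines that begins within 5 bases of the start, where the TOP motif would lie.
Rps27l, chr9:66946026-66946105, plus strand: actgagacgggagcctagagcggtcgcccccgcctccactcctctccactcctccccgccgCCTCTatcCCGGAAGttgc
Rpl22, chr4:152325666-152325745, plus strand: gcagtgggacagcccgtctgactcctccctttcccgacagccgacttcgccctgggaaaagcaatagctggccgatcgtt
Rpl12, chr2:32961652-32961731, plus strand: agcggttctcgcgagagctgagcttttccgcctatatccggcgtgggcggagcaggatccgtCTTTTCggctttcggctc
Rpl13, chr8:123102290-123102369, plus strand: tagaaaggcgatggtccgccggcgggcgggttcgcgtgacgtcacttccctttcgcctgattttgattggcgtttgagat
Rps10, chr17:27635225-27635304, minus strand: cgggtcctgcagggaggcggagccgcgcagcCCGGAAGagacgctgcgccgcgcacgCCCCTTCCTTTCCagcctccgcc
Rps6, chr4:86857348-86857427, minus strand: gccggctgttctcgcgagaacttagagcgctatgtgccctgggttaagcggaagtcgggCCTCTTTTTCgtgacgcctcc
Rpl28, chr7:4792905-4792984, plus strand: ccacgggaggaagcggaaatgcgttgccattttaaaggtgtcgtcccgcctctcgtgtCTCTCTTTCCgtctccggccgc

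CCGGAAG on either strand was found in the window of 18 of the 47 genes (38.3%), and in 9.93% of all 27025 genes with a window. The pyrimidine run at the start was found for 18 of the 47 (38.3%) and for 21.2% of all genes. A run that begins more than 5 bases from the listed start was not counted, so a gene without a match may still carry a TOP motif. CACGTG, the E-box bound by Myc, was found for 5 members (10.6%) and 8.09% of all genes, TATAAA for 6 (12.8%) and 15.7%, and the CArG box of serum response factor for 1, Rpl10a (2.13%), and 1.81%. A match is a match of letters, and no factor's binding was measured. The changes of the genes with and without CCGGAAG lay close together. Of the 18 holders 2 rose and 2 fell in Net shRNA cells, with a median of -0.02, and of the 29 others 2 rose and 2 fell, with a median of -0.02. In Sap-1 shRNA cells 1 holder rose and 1 fell (median -0.02), and 1 of the others rose and 3 fell (median -0.03). Of all genes 13.4% were called higher and 10.2% lower in Net shRNA cells, and 15.8% and 13.9% in Sap-1 shRNA cells, and nothing is read from counts this small.

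Factors that build ribosomes were called higher more often than genes overall. Of 66 measured ribosome biogenesis factors 26 rose and 3 fell in Net shRNA cells, with a median of 0.10, and 46 rose and 2 fell in Sap-1 shRNA cells, with a median of 0.25. That is 39.4% higher and 4.55% lower in Net shRNA cells, against 13.4% and 10.2% of all genes, and 69.7% and 3.03% in Sap-1 shRNA cells, against 15.8% and 13.9%. Among genes with a mean of at least 10, near the median level of these factors, 23.3% were called higher in Net shRNA cells and 28.5% in Sap-1 shRNA cells. Pes1, of the complex that processes large subunit RNA, rose by 0.57 in Net shRNA cells (SE 0.04, limma adjusted p = 1.8e-06) and by 0.46 in Sap-1 shRNA cells (SE 0.04, adjusted p = 4.5e-06 in limma). Its partner Wdr12 rose by 0.53 in Sap-1 shRNA cells (SE 0.04, adjusted p = 2e-06 in limma), and Dkc1, the pseudouridine synthase of small nucleolar particles, rose by 0.52 in Net shRNA cells (SE 0.05, limma adjusted p = 4.4e-05). Ddx10, a helicase of small subunit assembly, fell by 0.61 in Net shRNA cells (SE 0.07, limma adjusted p = 1e-04) and by 0.84 in Sap-1 shRNA cells (SE 0.07, adjusted p = 4.8e-06 in limma). In the direct comparison 5 factors were higher in Net shRNA cells and 31 lower, 7.58% and 47%, beside 14.2% and 13.3% of all genes.

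Array by array the same contrast was seen. The median deviation of the ribosomal protein genes from the control mean was -0.04, -0.01 and -0.0026 on Net shRNA arrays and -0.03, -0.02 and -0.03 on Sap-1 shRNA arrays. That of the biogenesis factors was 0.09, 0.15 and 0.11 on Net shRNA arrays and 0.24, 0.25 and 0.28 on Sap-1 shRNA arrays. A list of mitochondrial ribosomal protein genes was added after the values were seen, so its shares are a description only. Among 77 mitochondrial ribosomal protein genes, which encode the separate ribosome of that organelle, 41 rose and 1 fell in Net shRNA cells (median 0.17) and 46 rose and 1 fell in Sap-1 shRNA cells (median 0.19). These are 53.2% higher and 1.3% lower in Net shRNA cells, beside 13.4% and 10.2% of all genes, and 59.7% and 1.3% in Sap-1 shRNA cells, beside 15.8% and 13.9%. Their median level was 9.78, and among genes with a mean of at least 10 the shares called higher were 23.3% in Net shRNA cells and 28.5% in Sap-1 shRNA cells. Mrpl38 rose by 0.53 in Net shRNA cells (SE 0.04, limma adjusted p = 5.2e-06) and by 0.41 in Sap-1 shRNA cells (SE 0.04, adjusted p = 1.9e-05 in limma). Mrps26 was the gene that fell, by 0.21 in Net shRNA cells (limma adjusted p = 0.0017) and by 0.14 in Sap-1 shRNA cells (limma adjusted p = 0.015).

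**Figure D5:**
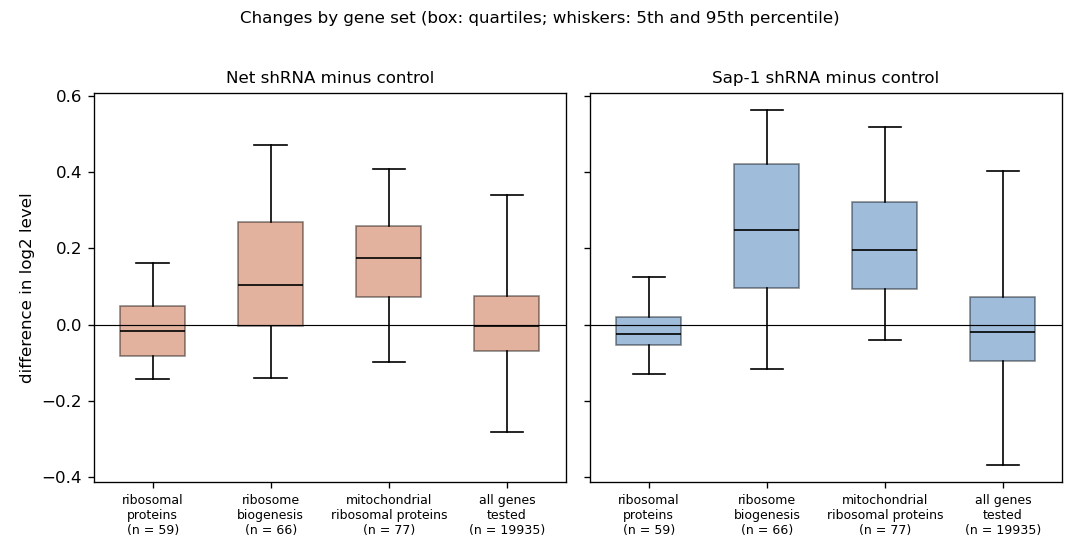
Changes of the ribosomal protein genes, ribosome biogenesis factors, mitochondrial ribosomal protein genes and all genes tested in Net shRNA cells (left) and Sap-1 shRNA cells (right) against control, in log2 units, with boxes for the quartiles and whiskers for the 5th and 95th percentiles. The box of the ribosomal protein genes spans 0, and the boxes of mitochondrial ribosomal protein genes, a list added after the values were seen, lie above 0 in both panels.

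Translation factors and other mRNAs known to carry a TOP motif were also measured. Of 26 measured, 5 rose and 0 fell in the limma fit in Net shRNA cells, with a median of -0.01, and 9 rose and 0 fell in Sap-1 shRNA cells, with a median of 0.04. The 19.2% called higher in Net shRNA cells lay between the 13.4% of all genes and the 23.3% of genes with a mean of at least 10, and the 34.6% in Sap-1 shRNA cells stood beside 15.8% and 28.5%. At an unadjusted p under 0.05, 2 were lower in Net shRNA cells and 0 in Sap-1 shRNA cells. Eif3i, a subunit of initiation factor eIF3, rose by 0.37 in Net shRNA cells (SE 0.04, limma adjusted p = 8.8e-05) and by 0.36 in Sap-1 shRNA cells (SE 0.04, adjusted p = 6.1e-05 in limma). Eef1d, a subunit of the elongation factor's exchange complex, rose by 0.19 in Net shRNA cells (limma adjusted p = 0.0076) and by 0.38 in Sap-1 shRNA cells (limma adjusted p = 4.7e-05).

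Of 25 measured genes of RNA polymerase I and its regulators 8 rose and 0 fell in the limma fit in Net shRNA cells, with 1 lower at an unadjusted p under 0.05, and 10 rose and 4 fell in Sap-1 shRNA cells. Called higher were 32% in Net shRNA cells and 40% in Sap-1 shRNA cells, beside 13.4% and 15.8% of all genes. Among genes with a mean of at least 10, near the median level of this list, 23.3% and 28.5% were called higher. The 16% called lower in Sap-1 shRNA cells were near the 13.9% of all genes and under the 23.7% of genes with such a mean. Polr1b, the polymerase's second largest subunit, rose by 0.32 in Net shRNA cells (SE 0.04, limma adjusted p = 0.00014). Rrn3, the initiation factor of the polymerase, rose by 0.37 in Sap-1 shRNA cells (SE 0.05, adjusted p = 0.00013 in limma), and Mycn fell by 1.27 there (SE 0.10, limma adjusted p = 2.8e-06).

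Of 15 measured regulators of TOP mRNA translation 2 rose and 2 fell in Net shRNA cells, and 3 rose and 6 fell in Sap-1 shRNA cells. The 13.3% in each direction in Net shRNA cells were near the 13.4% higher and 10.2% lower of all genes, and the 20% higher and 40% lower in Sap-1 shRNA cells stood beside 15.8% and 13.9%. Mtor, the kinase that controls TOP mRNAs, fell by 0.51 in Net shRNA cells (SE 0.07, limma adjusted p = 0.00029) and rose by 0.24 in Sap-1 shRNA cells (SE 0.07, adjusted p = 0.02 in limma). Eif4ebp1, the translation repressor that mTOR inactivates, rose by 0.16 in Net shRNA cells (limma adjusted p = 0.0093) and by 0.31 in Sap-1 shRNA cells (limma adjusted p = 8.1e-05). Among the 6 that fell in Sap-1 shRNA cells were Tia1 (-0.45, limma adjusted p = 6.9e-05), Tsc1 (-0.33, limma adjusted p = 0.00036) and Rheb (-0.25, limma adjusted p = 0.002). Of 10 transcription factors with sites in ribosomal protein promoters, 0 rose and 2 fell in the limma fit in Net shRNA cells, with 2 higher at an unadjusted p under 0.05, and 1 rose and 2 fell in Sap-1 shRNA cells. That is 0% higher and 20% lower in Net shRNA cells, beside 13.4% and 10.2% of all genes, and 10% and 20% in Sap-1 shRNA cells, beside 15.8% and 13.9%. The 20% called lower were near the shares of genes with a mean of at least 10, close to the median level of this list. Of those genes 20.7% were called lower in Net shRNA cells and 23.7% in Sap-1 shRNA cells. Gabpb1, a subunit of the ETS factor GABP, fell by 0.24 in Net shRNA cells (limma adjusted p = 0.0097) and by 0.23 in Sap-1 shRNA cells (limma adjusted p = 0.012).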

How the data were processed

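Total RNA of 9 samples, 3 per group, was hybridised to 1 array each. The deposited log2 values of 28815 probe sets came from RMA and Affymetrix Expression Console, tools named in the submitters' processing notes, with version and settings not given in the sources used here. Probe sets were named from the platform annotation, with symbols updated through RefSeq (GRCm38.p6). One symbol was given for 21780 probe sets, and the probe set with the highest mean per gene left 19935 genes.

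The test was that of limma 3.58.1 under R 4.3.3, with a single lmFit over the 9 arrays and eBayes without a trend, with Benjamini-Hochberg adjustment over all genes of each comparison and a call at an adjusted p under 0.05. The code was checked on simulated data. The number of arrays limits the precision. Promoter motifs were counted with Python 3.11.15. The members and the gene lists were chosen with earlier results of these data known, and the mitochondrial list was added after the values were seen. All members could be named; values on every array are given for those chosen by role and for called members, and of other lists up to 3 called genes per direction with the smallest adjusted p. Alternatives covered the replicate block, intensity trend, normalization, dim genes, averaging of probe sets, array weights, a stricter threshold, arrays left out and, added after seeing the data, the neighbours' shift, the median deviation of the 50 nearest genes in RefSeq order among those with a mean at or above the median gene.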

Additional observations from a re-analysis of the deposited data

Results flagged for a closer look

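Members whose change differed between the knockdowns in the direct limma comparison were Rpl12 (0.31, Net shRNA minus Sap-1 shRNA on the log2 scale), Rps21 (0.29), Rpl9 (0.21), Rpl13 (0.20), Rpl7 (-0.15), Rps27l (-0.18) and Rpl22 (-0.49). Rpl12, Rps21 and Rpl9 kept the call in every other setting run. Other probe sets of 2 of these genes did not pass between the knockdowns. They were the second one of Rps21 (0.20, limma adjusted p = 0.059) and ones that Rpl12 shares with Gm32899, such as that at 0.0081 (limma adjusted p = 0.92). Among the 233 probe sets shared by a ribosomal protein gene and other symbols, which stand outside the comparisons of the 59 genes, 21 were called in Net shRNA cells and 9 in Sap-1 shRNA cells, in either direction. Over all probe sets 10.8% were called higher and 8.83% lower in Net shRNA cells, and 13.2% and 11.5% in Sap-1 shRNA cells.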

How the results depend on the processing

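Against control, Rps27l passed in all 20 other settings in both knockdowns, and the median change of the ribosomal protein genes stayed between -0.02 and -0.01 in Net shRNA cells and between -0.04 and -4e-04 in Sap-1 shRNA cells. With 1 array left out, members called ranged from 2 to 6 higher and 1 to 5 lower in Net shRNA cells, from 1 to 4 higher and 1 to 5 lower after the Sap-1 shRNA, and from 4 to 5 higher and 1 to 3 lower between the knockdowns. Of the 19935 genes, 3848 to 4766, 5043 to 6160 and 4770 to 5481 were then called in these comparisons. At an adjusted p under 0.01 the counts were 2 higher and 1 lower in Net shRNA cells and 1 and 1 after the Sap-1 shRNA. Between the knockdowns they were 4 higher (Rpl12, Rps21, Rpl13 and Rpl9) and 1 lower (Rpl22). Over genes with a mean of at least 10, 11 members were lower in Net shRNA cells and 5 between the knockdowns. With these fewer genes tested, 2471 of 4427 were called after the Net shRNA, 2693 after the Sap-1 shRNA and 2693 between the lines. These are larger shares than the 23.6%, 29.7% and 27.5% of all genes in the main fit. With an intensity trend and robust variances 11 were lower in Net shRNA cells, and 8 were higher and 8 lower between the knockdowns. Over the 20 other settings 2471 to 5316 genes were called in Net shRNA cells, 2693 to 6835 in Sap-1 shRNA cells and 2693 to 6294 between the knockdowns. The share of all genes is not given for the intensity trend, the stricter threshold or the replicate block. Nor is it given for the centring of arrays, the dim genes left out or the mean of all probe sets. Nothing is read from the member counts of any of these settings. With each array centred on its median 1 was lower in Sap-1 shRNA cells. With the dim genes left out, or with the mean of all probe sets, 5 were lower between the knockdowns. With the neighbours' median taken off, 1 was higher after the Sap-1 shRNA, and 9 were higher and 1 lower between the knockdowns. Rpl6 then turned to 0.0452 in Net shRNA cells and to 0.0281 in Sap-1 shRNA cells, Rplp0 to 0.0015 in Sap-1 shRNA cells and Rpl7 to 0.10 between the knockdowns, and none of these passed. Apart from the settings named as testing fewer genes or fewer arrays, the cause was not tested. The main fit did not pair samples by replicate number. Same-numbered arrays correlated at -0.11 to 0.36 in their deviations from the group means, and differently numbered ones at -0.432 to 0.303. These overlapping ranges do not settle whether the numbers pair the samples. With the replicate block 6 members were higher and 5 lower in Net shRNA cells, and 3 higher and 4 lower in Sap-1 shRNA cells, where the call of Rps4x was lost (limma adjusted p = 0.052).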
